A study of Mus musculus with 10 samples.

Results

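Of 24542 merged ATAC regions found in any of 4 libraries, 1460 held a peak in both vehicle (DMSO) libraries and in neither library of cells given AMLE, an extract of apple mango leaves. Members were chosen by peak presence alone, from the authors' calls. They were found by joining the peak intervals of all 4 lists wherever these overlapped by at least 1 bp and keeping the regions with both DMSO lists and no AMLE list behind them. They are called vehicle-only regions here, and they made up 9.44% of the 15474 regions with a peak in both DMSO libraries. The rule needs all 4 libraries: without DMSO replicate 1 it gave 3991 regions, without DMSO replicate 2 it gave 3542, without AMLE replicate 1 it gave 2405 and without AMLE replicate 2 it gave 2505. A missing peak is one below the caller's threshold, and accessibility below that threshold was not analysed here.

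All libraries came from dendritic cells that were grown with 20 ng/mL GM-CSF out of the marrow of wild-type female C57BL/6 mice, 8 to 10 weeks old. The culture ran for 7 days. Immature cells collected on day 6 received 400 µg/mL AMLE, or 0.04% DMSO as vehicle, for 24 h. Open chromatin was mapped by ATAC-seq in 2 libraries per group, each made from 100000 cells exposed to transposase at 37 °C for 30 min, and RNA was sequenced in 3 libraries per group. Nothing in the labels ties the replicates to different mice or cultures, and the spread between libraries may be technical.

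ATAC-seq reads out where a transposase can reach the DNA. Promoters of active genes are usually open, and many are open in every cell type, whereas distal elements such as enhancers open and close with cell type and stimulus. Immature dendritic cells take up antigen, and on maturation they stop dividing, lose uptake receptors and gain co-stimulatory molecules and the migration receptor CCR7.

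The DMSO and AMLE peak lists held 18460 and 19225, and 15805 and 15597 intervals. Total RNA counts ran from 26010455 to 34208286 per library. Of 13075 genes tested with edgeR, 3346 (25.6%) were called lower in AMLE and 3004 (23%) higher at an adjusted p below 0.05. All 15 defining dendritic cell markers were tested, and summed to 13000 to 15600 CPM (counts scaled to a common library size) in the DMSO and 15600 to 16900 in the AMLE libraries. Markers of other cells moved too: 17 neutrophil and granulocyte precursor genes summed to 15700 to 25100 CPM in DMSO and 11700 to 15600 in AMLE, with 10 lower and 1 higher. The 11 tested monocyte markers summed to 6250 to 8030 CPM in DMSO and 5040 to 9840 in AMLE, tissue macrophage genes to 2510 to 2620 and 2180 to 2550, mast cell and basophil markers to 273 to 444 and 422 to 825, lymphocyte markers to 99.9 to 109 and 137 to 169, and erythroid and stromal markers to 23.9 to 35.5 and 39.4 to 96.4, with Hba-a1, Hba-a2, Hbb-bs and Hbb-bt at 0. Their part in the results was not tested. In bulk samples, fewer cells of a type and less RNA per cell cannot be told apart.

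Promoters inside vehicle-only regions are shown first, because there the region sits on the gene's own start. From 17 genes called in the RNA test whose 250 bases before the start site lay outside every annotated gene and had at least 150 bases inside a vehicle-only region, the 6 largest falls and the 2 largest rises are given. The bases are those of RefSeq on build GRCm38.p6, the build also named mm10, written 5′ to 3′ on the strand of the gene and ending at the base before the start site. Capitals mark letter matches, on either strand, to 10 motifs. These were GAGGAAGT for PU.1, CCGGAAGT for ETS factors, TGANTCA for AP-1, AANNGAAA for IRF factors, TTGCNNAA for C/EBP factors, TGTGGTT for RUNX factors, GGGCGG for SP factors, the CCAAT box, the E-box CACGTG and the TATA box TATAAA. Matches may overlap.
Asgr2: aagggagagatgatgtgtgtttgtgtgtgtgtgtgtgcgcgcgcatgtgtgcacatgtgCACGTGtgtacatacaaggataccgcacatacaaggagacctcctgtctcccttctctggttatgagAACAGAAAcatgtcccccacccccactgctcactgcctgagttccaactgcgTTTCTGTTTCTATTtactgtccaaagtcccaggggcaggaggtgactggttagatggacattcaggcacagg
2610318N02Rik: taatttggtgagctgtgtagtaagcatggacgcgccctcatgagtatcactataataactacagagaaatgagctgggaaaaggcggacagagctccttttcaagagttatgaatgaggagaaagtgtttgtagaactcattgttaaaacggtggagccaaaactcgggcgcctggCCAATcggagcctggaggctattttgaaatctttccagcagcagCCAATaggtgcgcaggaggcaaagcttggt
Ifitm6: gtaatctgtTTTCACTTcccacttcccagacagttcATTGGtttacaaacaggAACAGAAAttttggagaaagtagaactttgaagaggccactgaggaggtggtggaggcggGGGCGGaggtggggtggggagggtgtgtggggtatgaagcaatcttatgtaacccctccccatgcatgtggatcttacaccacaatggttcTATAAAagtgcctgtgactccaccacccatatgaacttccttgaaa
Clec4a3: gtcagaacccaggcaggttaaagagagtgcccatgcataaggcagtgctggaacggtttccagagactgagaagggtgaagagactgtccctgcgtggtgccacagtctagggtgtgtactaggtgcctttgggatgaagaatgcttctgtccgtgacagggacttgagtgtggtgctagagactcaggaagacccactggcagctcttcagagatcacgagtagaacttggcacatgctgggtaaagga
Ldhb: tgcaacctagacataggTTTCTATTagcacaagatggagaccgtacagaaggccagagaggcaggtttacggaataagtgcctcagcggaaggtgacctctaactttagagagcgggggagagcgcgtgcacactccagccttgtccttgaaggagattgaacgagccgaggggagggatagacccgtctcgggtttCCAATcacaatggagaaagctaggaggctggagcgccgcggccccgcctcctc
Sdad1: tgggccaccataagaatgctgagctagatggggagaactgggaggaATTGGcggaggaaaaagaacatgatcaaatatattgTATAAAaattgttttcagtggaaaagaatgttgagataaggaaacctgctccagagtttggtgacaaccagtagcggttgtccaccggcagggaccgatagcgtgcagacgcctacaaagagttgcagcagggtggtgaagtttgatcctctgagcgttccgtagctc
Gm9895: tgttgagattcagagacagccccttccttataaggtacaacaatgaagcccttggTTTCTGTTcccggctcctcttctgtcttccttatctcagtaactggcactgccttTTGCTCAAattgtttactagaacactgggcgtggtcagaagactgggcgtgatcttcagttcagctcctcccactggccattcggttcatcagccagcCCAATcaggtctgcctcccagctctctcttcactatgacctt
Lrrk1: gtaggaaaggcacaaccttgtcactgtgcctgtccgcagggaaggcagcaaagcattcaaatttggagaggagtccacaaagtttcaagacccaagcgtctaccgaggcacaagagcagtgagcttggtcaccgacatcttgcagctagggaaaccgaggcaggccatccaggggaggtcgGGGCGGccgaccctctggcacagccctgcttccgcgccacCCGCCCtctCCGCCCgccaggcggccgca

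Their positions are chr11:70092394-70092643 for Asgr2 (plus strand), chr16:17125203-17125452 for 2610318N02Rik (minus), chr7:141016893-141017142 for Ifitm6 (minus), chr6:122952265-122952514 for Clec4a3 (plus), chr6:142507958-142508207 for Ldhb (minus), chr5:92310025-92310274 for Sdad1 (minus), chr19:29067051-29067300 for Gm9895 (plus) and chr7:66388342-66388591 for Lrrk1 (minus). The Asgr2 stretch held an E-box and 3 IRF matches. That of 2610318N02Rik held 2 CCAAT matches, and that of Lrrk1 held 3 SP matches and the highest GC content of the 8, at 62.4%. No searched motif was found in the Clec4a3 stretch. All 250 bases of the Asgr2, Ifitm6 and Ldhb stretches lay inside the region, against 168 of the 250 for Gm9895.

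Among all RefSeq promoter windows of 300 bases (250 before to 50 after the start), 183 windows of 164 genes overlapped a vehicle-only region. The windows of a gene overlap each other, so these shares are descriptions. Median GC content was 54.7% in the vehicle-only windows, 62.7% in the 8847 windows overlapping a region found in all 4 libraries, and 49% in windows with no region. The median window held 13 CG pairs, against 24 in windows open in all 4 libraries and 4 where there was no region. The SP letters GGGCGG were in 47% of the vehicle-only windows, 70.9% of the windows open in all 4 libraries and 35.7% of all 32851 windows, and the ETS letters CCGGAAGT in 6.56%, 10.2% and 3.89%. The IRF letters AANNGAAA were in 26.2%, 15.3% and 23.9% in the same order. PU.1 letters were in 4.92% of the vehicle-only windows (9 windows), 3.38% of the windows open in all 4 libraries and 3.2% of all windows. For AP-1 the shares were 4.92%, 4% and 7.81%, for C/EBP 10.4%, 7.37% and 10.8%, for RUNX 6.56%, 3.38% and 5.27%, for CCAAT 42.1%, 39.6% and 37.4%, for the E-box 9.84%, 11.3% and 7.15% and for TATAAA 6.56%, 5.31% and 13.6%. A further 498 windows overlapped a region with both DMSO peaks and 1 AMLE peak. Their shares were 55.6% for SP, 9.24% for ETS, 21.3% for IRF, 5.42% for PU.1 and 6.43% for AP-1. For C/EBP, RUNX, CCAAT, the E-box and TATAAA they were 12.7%, 5.62%, 36.5%, 11.8% and 8.84%.

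Vehicle-only regions were narrow and weak in the DMSO lists, values that the rule itself draws on. Their median width was 427 bp (238 to 1629), against 745 bp for the 12033 regions found in all 4 libraries. Strength is given by the authors' −log10 q, the peak caller's score for its false discovery rate, and by fold enrichment over background. The median −log10 q was 5.99 in DMSO replicate 1 and 6.33 in replicate 2, with median folds of 5.17 and 5.29. Regions found in all 4 libraries had 27 and 36.5, with folds of 9.36 and 10.8. Of the 2 DMSO values of each region, the smaller had a median of 4.4 and ran from 1.31 to 32.5. It reached 5 in 655 regions, 10 in 216 and 20 in 28. In the DMSO lists the members' peaks stood at median percentiles of 24.2 and 24.1.

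At every strength some regions were kept, and loss became rarer as strength rose. Below a −log10 q of 2, 40.7% of the regions in both DMSO lists lacked a peak in both AMLE lists. The share was 32.8% from 2 to 5, 16% from 5 to 10, 5.84% from 10 to 20, 0.957% from 20 to 40, and 0 of 4249 regions at 40 or more. The mirror image was much smaller at each strength where it was above 0. Of regions in both AMLE lists, 9.47% below 2 and 0.389% from 5 to 10 lacked both DMSO peaks, and 113 of 12700 (0.89%) did so in all. The AMLE lists were also shorter, so a region could be absent because less was called in those libraries. Read depth of the ATAC libraries was not given in the files, and its part in the result was not tested.

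**Figure D1:**
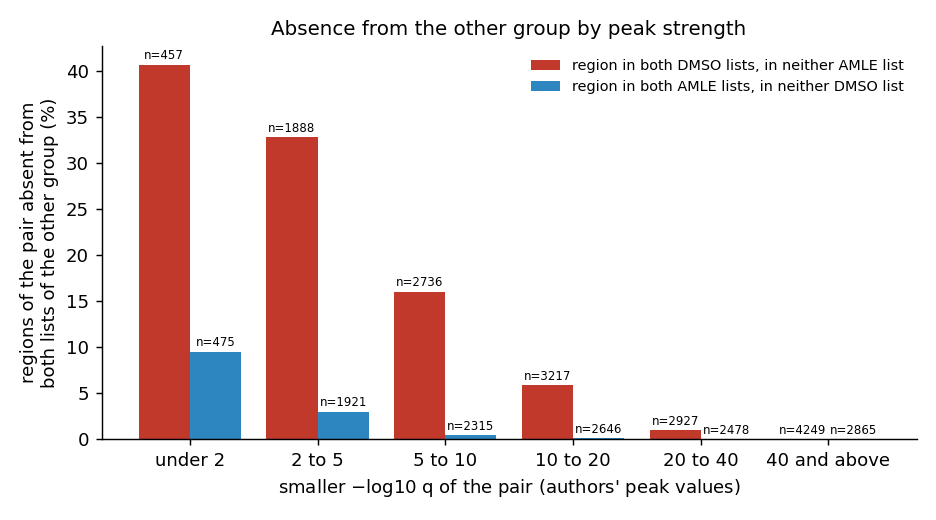
Share of regions held by both libraries of one group that had no peak in either library of the other (vertical axis, %), by the smaller −log10 q of the pair (horizontal axis). Red bars are DMSO pairs, falling from 40.7% to 0, and blue bars are AMLE pairs, falling from 9.47% to 0, with the number of regions above each bar.

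The edge of the rule was soft. The weakest member, near Lmo4, had −log10 q values of 6.94 and 1.31 in the DMSO lists. A region near Parvg with 6.5 and 2.13 was left out for an AMLE peak at 1.3, and 210 regions with 1 AMLE peak were left out for a peak under 2. The 1981 regions with both DMSO peaks and 1 AMLE peak were between the other classes in width (519 bp) and strength (7.81 and 8.7), and their AMLE peak had a median −log10 q of 4.53.

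Vehicle-only regions lay mostly away from promoters, which the rule did not use. Their midpoints were within 1 kb of the nearest gene start, or gene end where no start was listed, for 219 regions (15%). It was 25.5% for regions with 1 AMLE peak, 63.7% for those in all 4 libraries and 31.9% for those in both AMLE libraries only. The distance was to a gene end for 27.4% of vehicle-only regions and 21.1% of regions found in all 4 libraries. A further 23.6% of vehicle-only regions were 1 to 10 kb away, 53.6% were 10 to 100 kb away and 7.81% were farther or had no gene. The median distance was 16358 bp, against 226 bp for regions found in all 4 libraries. Inside the interval of a protein-coding gene lay 833 regions (57.1%).

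The share within 1 kb of a gene start was also lower among regions of like peak strength. Gene ends again stood in where no start was listed. Where the smaller DMSO −log10 q was 5 to 10, it was 16.9% of 439 vehicle-only regions and 41.3% of 1593 in all 4 libraries. From 10 to 20 the shares were 19.7% of 188 and 50.1% of 2623, and from 20 to 40 they were 32.1% of 28 and 64.4% of 2792. Width differed in the same bins, with medians of 422 against 695 bp from 5 to 10 and 402 against 693 bp from 10 to 20. Regions with 1 AMLE peak were nearer to the vehicle-only share, at 21.7% from 5 to 10, 29.8% from 10 to 20 and 51.4% from 20 to 40. Below 2 the shares were 14.5% of 186 vehicle-only regions, 17.6% of 148 with 1 AMLE peak and 34.1% of 123 in all 4. From 2 to 5 they were 11.6% of 619, 23.7% of 607 and 39.1% of 662. All are shares over regions of the same 4 libraries, with no test.

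**Figure D2:**
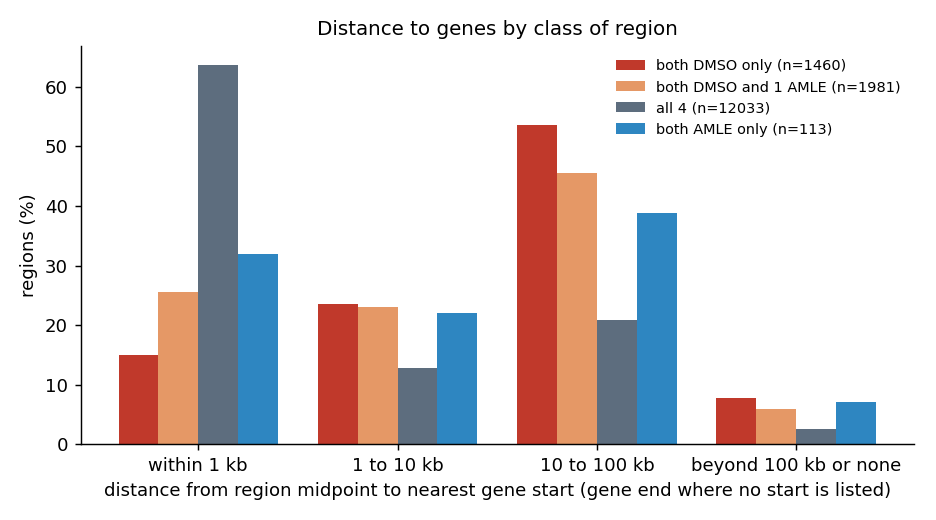
Share of regions (vertical axis, %) by distance from the region's midpoint to the nearest gene start, or gene end where no start is listed, for 4 classes of region. Vehicle-only regions (red) are highest at 10 to 100 kb, with 53.6%, and regions found in all 4 libraries (grey) within 1 kb, with 63.7%.

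The regions were spread over the genome and mostly stood alone. Their share of the regions in both DMSO lists ran from 4.08% on chromosome X (13 of 319) to 12% on chromosome 10 (99 of 828). Chromosome 2 held the most, 128, and chromosome 8 had the lowest share of an autosome, 7.02%. Only 54 regions (3.7%) had another vehicle-only region within 10 kb. The nearest region found in all 4 libraries was within 1 kb for 1.85% of them and within 10 kb for 25.1%, with a median gap of 25692 bp. The summits of both DMSO libraries were a median of 39 bp apart, and within 50 bp in 57.1% of the regions, against 22 bp and 74% for regions found in all 4 libraries.

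**Figure D3:**
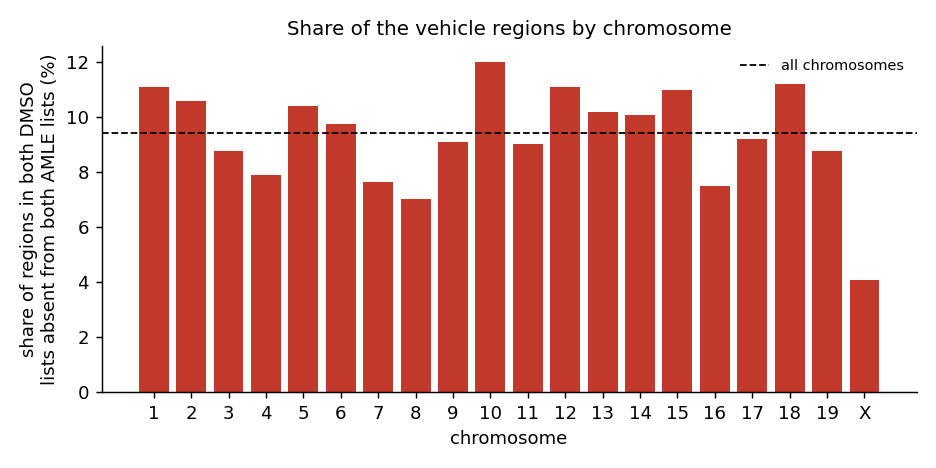
Vehicle-only regions as a share of the regions in both DMSO lists (vertical axis, %), by chromosome (horizontal axis). The dashed line is the share over all chromosomes, 9.44%, and chromosome X is lowest at 4.08%.

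The strongest region, inside Kansl1, which encodes a scaffold of a histone acetyltransferase complex, was chr11:104424884-104425515. Its −log10 q was 32.5 and 46.9 in the DMSO lists, with folds of 12.5 and 15.8, and it lay 17092 bp inside the gene from its start. Kansl1 RNA was 82.5, 84.7 and 81.2 CPM in the DMSO libraries and 103, 105 and 105 in the AMLE libraries, so the gene rose without overlap (log2 fold change 0.33 ± 0.04, SE, edgeR adjusted p = 7.44e-04). The next strongest, chr2:59160517-59160821 (30.8 and 46.4), covered the start of Ccdc148, whose RNA was at or near 0. A start of Pkp4, a plakophilin of cell junctions, lies beside it in RefSeq, and Pkp4 RNA fell from 52.7, 51.6 and 59.8 CPM to 32.9, 31.4 and 43.3 (−0.61 ± 0.13, edgeR adjusted p = 0.00775). The other regions of this rank were near Btbd19, Lyrm2, Nt5e (CD73, an ectoenzyme that makes adenosine), Fgf6, Tmem230 and Sipa1l1. Fgf6 was listed at 0 in all 6 libraries. Lyrm2 (0.16, edgeR adjusted p = 0.12) and Nt5e (−0.05, 0.81) did not pass, while Sipa1l1, a regulator of Rap GTPases, rose by 0.55 (0.00124).

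The widest vehicle-only region, 1629 bp at chr1:161375430-161377058, was 19194 bp from Tnfsf4, which encodes OX40 ligand, a co-stimulatory molecule for T cells. It was weak (3.93 and 4.56), and Tnfsf4 RNA rose from 8.96, 11.5 and 10.9 CPM to 17.9, 19.2 and 20.5 (0.88 ± 0.11, edgeR adjusted p = 6.60e-04). The next, 1485 bp inside Cd200r3, a CD200 receptor of mast cells and basophils, stood at 13.5 and 8.68. Cd200r3 RNA was 14, 17.6 and 9.44 CPM in DMSO and 34, 46 and 14.3 in AMLE. These groups overlapped, and the change of 1.21 did not pass (edgeR adjusted p = 0.051). It passed with DESeq2 (0.0492), when the replicate number was a block (0.00304) and when AMLE replicate 3 was left out (0.00323). The third, 1226 bp inside Tm6sf1, was near a gene that fell by 0.94 on the log2 scale (edgeR adjusted p = 7.48e-04).

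Genes near vehicle-only regions changed in both directions after AMLE. Within 100 kb, 1346 regions were nearest to 1243 genes, and 996 of these were tested. Of the 996, 228 (22.9%) were called lower, beside 25.6% of all tested genes, and 291 (29.2%) were called higher, beside 23%. The median log2 change was 0.058, beside −0.005 over all tested genes. At least 2-fold lower were 43 (4.32%, beside 4.4%) and at least 2-fold higher 66 (6.63%, beside 5.52%). Without single ATAC libraries the sets were larger, with 502, 464, 366 and 403 genes lower and 689, 592, 458 and 478 higher when DMSO replicate 1, then 2, AMLE replicate 1, then 2 was left out, and the shares ran from 22.7% to 24.3% lower and from 28.8% to 31.1% higher.

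Regions found in all 4 libraries gave 28.1% lower and 22.3% higher of 8395 tested genes, and those with 1 AMLE peak gave 24.4% and 28.6% of 1381. These gene sets are not separate. Of the 1243 genes near vehicle-only regions, 717 (57.7%) were also nearest to a region found in all 4 libraries. The classes differ in distance, and so did their shares by distance. Genes 10 to 100 kb from a vehicle-only region were called lower in 19.4% and higher in 30.6% of 556, against 21.7% and 30.9% of 1504 for regions found in all 4 libraries at that distance. Within 1 kb of a vehicle-only region, 56 of 200 were called in each direction (28%), against 29.3% lower and 21.4% higher of 7346. These distances run to gene ends where no start is listed. With listed starts within 1 kb of the region's interval, 26.6% were lower and 22.8% higher of 158. For regions found in all 4 libraries these shares were 29.3% and 20.6% of 7073. Genes at the strongest vehicle-only regions, with a −log10 q of at least 10 in both DMSO lists, were called lower in 28.2% and higher in 27% of 163. The nearest gene need not be the one a region acts on.

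**Figure D4:**
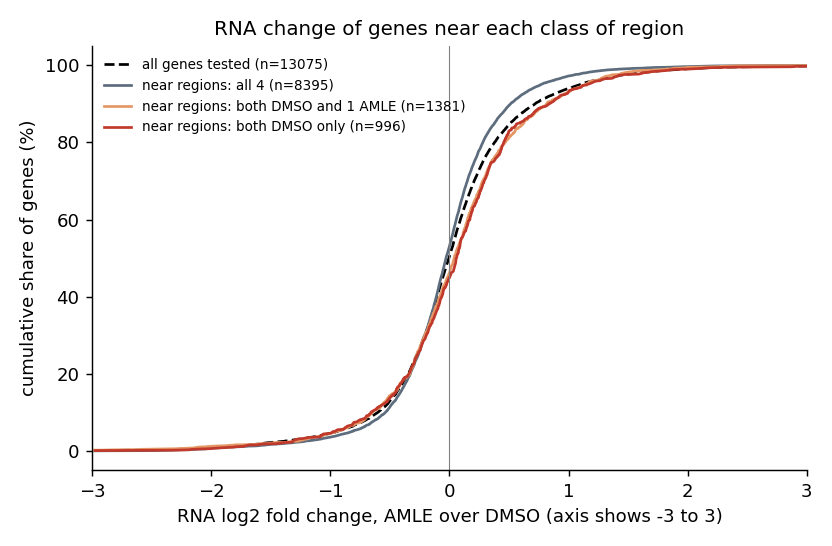
Cumulative share of genes (vertical axis, %) by RNA log2 fold change of AMLE over DMSO (horizontal axis), for all 13075 tested genes (dashed) and for genes near 3 classes of region. The curve of the 996 genes near vehicle-only regions (red) has a median of 0.058 and runs close to that of the 1381 genes near regions with 1 AMLE peak. A gene can belong to more than 1 curve.

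A vehicle-only region lay within 1 kb of the start of 174 genes, 158 of them tested, and 42 (26.6%) were called lower and 36 (22.8%) higher, with a median of −0.039. A start also lay within 1 kb of a region found in all 4 libraries for 12 of the 174. Of the 146 tested genes with no such second region, 37 (25.3%) were called lower and 31 (21.2%) higher. The median level of these 158 genes was 20.6 CPM, beside 26.7 for all tested genes.

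Examples of start-site genes that fell follow. They were singled out after their values were seen, so they show no theme, although Asgr2 and 2610318N02Rik were also among the largest falls. Asgr2, a subunit of the asialoglycoprotein receptor, a lectin that takes up galactose-ending glycoproteins, stood at 73.2, 75.6 and 162 CPM in DMSO and 13.7, 12.1 and 13.9 in AMLE. DMSO replicate 3 was the highest and the groups were far apart (−2.97 ± 0.34, edgeR adjusted p = 6.09e-04). Its region, chr11:70092151-70092708, was weak, at 3.14 and 1.89. Clec4a3, a C-type lectin receptor, had a stronger one (14 and 10.3) over its start. Its RNA was 34.3, 33.3 and 47.2 CPM in DMSO and 17, 12.8 and 24.9 in AMLE, without overlap (−1.07 ± 0.25, edgeR adjusted p = 0.0114). Trem1, a receptor that amplifies inflammatory signals, had one of 16.3 and 23.8, and its RNA fell from 95.1, 92.7 and 81.3 CPM to 68, 62.9 and 74.6 (−0.39 ± 0.08, edgeR adjusted p = 0.0073). Ifitm6, an interferon-induced transmembrane gene with 2 vehicle-only regions, fell from 66.1, 59.4 and 51.4 to 25.6, 21.4 and 30.5 CPM (−1.20 ± 0.15, edgeR adjusted p = 8.15e-04). Anxa1, the phospholipid-binding annexin A1, fell by 0.60 on the log2 scale (0.00285).

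Further falls at start sites, singled out in the same way, were those of Dtymk, Rcc2, Sdad1, Ldhb and 2610318N02Rik. The region on Dtymk, the thymidylate kinase of DNA synthesis, was chr1:93801811-93802066, at 17.2 and 16.4. Dtymk RNA was 38.7, 39.8 and 39.4 CPM in DMSO and 20.6, 19.8 and 20.3 in AMLE (−0.96 ± 0.05, edgeR adjusted p = 3.66e-05). Rcc2, a regulator of mitosis, fell from 267, 260 and 238 to 162, 165 and 135 CPM (−0.73 ± 0.09, edgeR adjusted p = 6.22e-04). Sdad1, which serves ribosome assembly, fell from 89.3, 92.6 and 92.8 to 51.7, 49.8 and 55.4 CPM (−0.81 ± 0.05, edgeR adjusted p = 7.82e-05). In all 3 genes the groups did not overlap. Ldhb, a lactate dehydrogenase subunit, was at 6.74, 7.27 and 9.68 CPM in DMSO and 3.57, 3.06 and 5.43 in AMLE (−0.98, edgeR adjusted p = 0.0133), a call lost without AMLE replicate 1 (0.0526). The uncharacterised gene 2610318N02Rik fell from 9.03, 8.04 and 8.16 to 1.75, 1.72 and 2.14 CPM (−2.17 ± 0.13, edgeR adjusted p = 6.35e-05), with a region at 7.34 and 20.9.

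Other genes rose although the region on their start was missing from the AMLE lists. Hdac11, a histone deacetylase, had a region of 22.8 and 24 and rose from 1.11, 0.948 and 0.999 CPM to 2.17, 2.36 and 1.72 (1.03 ± 0.20, edgeR adjusted p = 0.00454). Lrrk1, a leucine-rich repeat kinase chosen after its values were seen, rose from 192, 218 and 218 to 388, 440 and 351 CPM (0.91 ± 0.09, edgeR adjusted p = 3.27e-04). Gm9895, a predicted gene likewise chosen, rose from 1.3, 1.05 and 1.27 to 2.72, 2.89 and 2.25 CPM (1.11 ± 0.18, edgeR adjusted p = 0.00244). All 3 were without overlap. Of the other strong start-site regions, that of Tmem230 (27.4 and 46.8) was on a gene that rose by 0.25 (0.0123) and that of Mbip on one at 0.10 (0.296). That of Btbd19 was near a gene that rose by 0.43 (0.0118, or 0.0501 without DMSO replicate 2). The Btbd19 region lay inside Tctex1d4, 416 bp before the Btbd19 start, and a region found in all 4 libraries was 544 bp away from it.

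**Figure D5:**
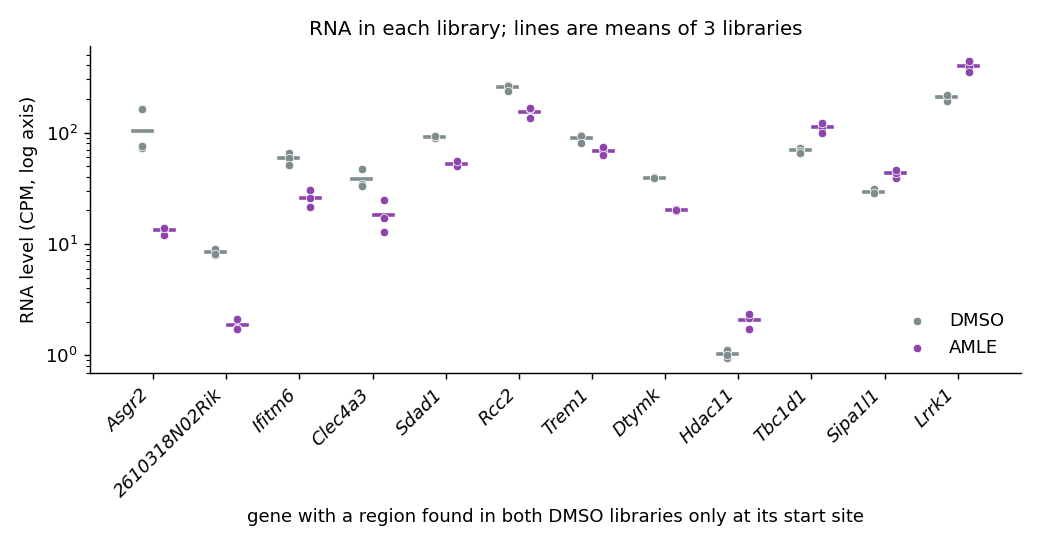
RNA level of 12 genes with a vehicle-only region at the start site, in CPM on a log axis (vertical), by gene (horizontal). Each point is 1 library, grey for DMSO and purple for AMLE, and lines are means of 3. Most of these genes were singled out after their values were seen, and they are ordered by direction. AMLE points lie below DMSO points from Asgr2 to Dtymk and above them from Hdac11 to Lrrk1. Of all 158 tested start-site genes, 26.6% were called lower and 22.8% higher.

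The largest falls among genes near vehicle-only regions included Cenpe, Kif23 and Iqgap3. Cenpe, the kinetochore motor protein, stood at 72.9, 65.7 and 83.1 CPM in DMSO and 16.5, 14.9 and 24.1 in AMLE (−2.01 ± 0.19, edgeR adjusted p = 2.85e-04), with a strong region (22 and 23.6) 20523 bp before its start. Kif23, the kinesin of the central spindle, fell by 1.98 and Iqgap3, a scaffold protein of proliferating cells, fell by 1.87 on the log2 scale. Of 37 listed cell cycle genes, of which 33 fell and 3 rose, 2 had such a region, Ccne1 and Cdk6 (7.62% of all tested genes had one). The Cdk6 region was 76935 bp inside the gene, and the change of 0.50 did not pass (edgeR adjusted p = 0.0697, 2.28e-04 with a replicate block, 0.0211 with DESeq2 and 0.00676 without AMLE replicate 3). Ccne1, which encodes cyclin E1, fell from 36.6, 35.8 and 45.4 to 11.4, 10.2 and 14.3 CPM (−1.72 ± 0.15, edgeR adjusted p = 2.04e-04). The remaining large falls were Myl10, a myosin light chain (−2.33), Gal, the neuropeptide galanin (−2.19), and Ccdc80, a matrix protein (−2.11).

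The largest rise was Arg1, arginase 1, which competes for arginine with nitric oxide synthesis. A region of 20.4 and 15.1 lay at chr10:24930246-24930565, 2935 bp from the gene. Arg1 RNA was 2.45, 1.58 and 0.448 CPM in DMSO and 143, 141 and 11.5 in AMLE. AMLE replicate 3 was far below the other two but above every DMSO library (6.03 ± 1.10, edgeR adjusted p = 0.00424). Slc7a2, a transporter of cationic amino acids including arginine, rose from 76.9, 94.6 and 79 to 396, 354 and 342 CPM (2.12 ± 0.10, edgeR adjusted p = 2.98e-05), and its region (6.3 and 2.33) was 151 bp from an end of the gene, whose strand was not listed. Plek2, a pleckstrin (2.24), and Htr7, a serotonin receptor (2.00), also rose.

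Of 21 listed transcription factors of dendritic cells, 7 had a vehicle-only region within 100 kb, beside 7.62% of all tested genes, and 17 of the 21 had a region found in all 4 libraries. In the list as a whole 12 rose and 4 fell, and of the 7 genes 3 rose and 1 fell. Irf8, which directs conventional dendritic cell development, had 8 regions assigned in all, of which 1 was vehicle-only (3.03 and 3.24, 28474 bp before the start) and 1 was found in all 4 libraries. Irf8 RNA rose from 202, 218 and 234 to 801, 906 and 704 CPM, with the groups far apart (1.88 ± 0.10, edgeR adjusted p = 4.59e-05). Rbpj, the DNA-binding partner of Notch, rose by 0.32 (0.0025). Batf, an AP-1 family factor with a region of 12.4 and 17.6, was at 25.1, 26.7 and 25.7 CPM in DMSO and 23.4, 22.8 and 21.1 in AMLE (−0.20, edgeR adjusted p = 0.0315), a call lost when any 1 of the 6 libraries was left out (0.057 to 0.102). The other members with a region were Irf4, Batf3, Bcl6 and Bcl11a. Of 36 myeloid lineage factors, 5 had a vehicle-only region, beside 7.62% of all tested genes. A region found in all 4 libraries was near 33 of the 36. Of the 5 genes, 2 rose and 1 fell. Runx3 rose by 0.47 (edgeR adjusted p = 0.00114) and Klf6 by 0.46 (6.97e-04); both fall outside the rule for named genes and complete the count. Pparg, a lipid-sensing nuclear receptor (−0.24, 0.204), and Tfec (−0.21, 0.0668; 0.0353 without AMLE replicate 3 and 0.0068 with a block) did not pass. Spi1, which encodes PU.1, fell (−0.20, edgeR adjusted p = 0.023), but not when replicate 1 or 2 of either group was left out (0.0518 to 0.0821).

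All 5 maturation and co-stimulation genes near a vehicle-only region rose, in a list where 21 of 24 tested genes rose and 1 fell. Of all tested genes, 7.62% had such a region. Ccr7 had a region at chr11:99160565-99161254 (3.2 and 6.86), 5832 bp from the gene, beside 4 regions found in all 4 libraries. Its RNA was 588, 673 and 615 CPM in DMSO and 1630, 1950 and 1560 in AMLE (1.46 ± 0.10, edgeR adjusted p = 8.45e-05). Pdcd1lg2, the PD-1 ligand PD-L2, had 2 such regions inside the gene and rose from 81, 97.3 and 109 to 159, 184 and 127 CPM (0.71 ± 0.16, edgeR adjusted p = 0.009). Tnfsf4 is described above, Socs2 was the fourth, and Cd1d1, a lipid-presenting molecule, rose by 0.50 (0.0416) in overlapping groups. The Cd1d1 call was lost without replicate 1 (0.129) or 2 (0.122) of DMSO and without replicate 2 (0.0828) or 3 (0.0913) of AMLE.

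Of 24 tested cytokine and chemokine genes, 3 had a vehicle-only region, beside 7.62% of all tested genes. Il12a, the p35 subunit of interleukin 12, rose from 0.985, 0.983 and 1.21 to 3.22, 3.62 and 4.62 CPM (1.85 ± 0.20, edgeR adjusted p = 4.22e-04). Its region (2.22 and 7.96) lay 18052 bp beyond the start. Cxcl16, a chemokine, rose from 165, 196 and 233 to 357, 387 and 420 CPM (0.97 ± 0.13, edgeR adjusted p = 0.00113). Ccl2, a monocyte attractant with 2 vehicle-only regions, was at 21.4, 27.1 and 11.6 CPM in DMSO and 15.9, 14.1 and 8.44 in AMLE. The groups overlapped and the change did not pass (−0.64, edgeR adjusted p = 0.157), but did without DMSO replicate 3 (0.0344) and with a block on the replicate number (0.00277).

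Of 17 tested chemokine receptor and migration genes, 5 had a vehicle-only region (7.62% of all tested genes), among them Ccr7, Ccr1, S1pr3 and Fpr1. Of the 21 genes listed, 14 had a region found in all 4 libraries. Ccr1, a receptor for inflammatory chemokines, was at 328, 307 and 267 CPM in DMSO and 353, 305 and 343 in AMLE, with overlap (0.15, edgeR adjusted p = 0.204).

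Immature and phagocytic genes fell in 11 of 21 tested members, and 3 of the 21 had a vehicle-only region, beside 7.62% of all tested genes. Clec10a, a lectin that binds galactose residues, had one of 16.2 and 12.6 at chr11:70166288-70166821, 69 bp from the gene and on the same chromosome as that of Asgr2. Its RNA fell from 70.6, 74.6 and 109 to 30.7, 37.8 and 30.3 CPM (−1.36 ± 0.18, edgeR adjusted p = 0.00115). Marco, a scavenger receptor, was at 4.74, 3.51 and 11.6 CPM in DMSO and 1.36, 0.613 and 3.36 in AMLE (−1.93 ± 0.67, edgeR adjusted p = 0.0487). That call was lost without replicate 1 (0.0703) or 3 (0.151) of DMSO, without replicate 1 (0.135) or 2 (0.123) of AMLE, and with no low-count filter (0.128). Cd36, another scavenger receptor, did not pass (0.20, edgeR adjusted p = 0.248; 0.0393 without AMLE replicate 3). Plbd1, a phospholipase B-like gene chosen after its values were seen, fell from 220, 226 and 282 to 116, 114 and 110 CPM (−1.10 ± 0.10, edgeR adjusted p = 2.00e-04). None of the 17 neutrophil or 10 lymphocyte markers tested was near a vehicle-only region. With 7.62% of all tested genes near one, absence from lists this short shows little.

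Antigen presentation genes near vehicle-only regions were H2-Ab1, H2-Eb2 and Ctss. H2-Ab1, an MHC class II chain that presents peptides to CD4 T cells, was at 844, 1160 and 1530 CPM in DMSO and 632, 662 and 887 in AMLE, with overlap (−0.70 ± 0.23, edgeR adjusted p = 0.0408). The call was lost without replicate 2 (0.0874) or 3 (0.104) of DMSO, without replicate 1 (0.127) or 2 (0.118) of AMLE, and with no low-count filter (0.0981). Its region (6.68 and 13.5) was 1511 bp from the gene. H2-Eb2 had one 246 bp before its start and did not pass (−0.46, edgeR adjusted p = 0.357; 0.008 with a replicate block). Ctss, the cathepsin that trims the invariant chain, was at −0.06 (0.778).

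A few genes gathered several vehicle-only regions. Tbc1d1, a Rab GTPase-activating protein, had 3, the strongest (19.3 and 48.3) 43 bp before a start, and rose from 73.1, 68.7 and 65.8 to 113, 122 and 98.8 CPM (0.68 ± 0.08, edgeR adjusted p = 6.57e-04). Cradd, a death-domain adaptor with 3, rose by 0.72 (0.00191), and Atp8b4, a phospholipid-flippase gene with 3, fell by 0.50 on the log2 scale (0.00394). Nav1, with 3, did not pass (0.43, edgeR adjusted p = 0.0554; 0.0152 with DESeq2, 0.0208 without DMSO replicate 3 and 0.0279 with a block), nor did A530013C23Rik, a non-coding gene at under 1 CPM (0.48, 0.191). Of the 8 genes with 3 or more vehicle-only regions, 1 (12.5%) was called lower and 2 (25%) were called higher. The shares of all tested genes were 25.6% and 23%, and a set of 8 shows little.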

How the data were processed

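Raw read counts per gene were deposited by the authors for 6 RNA libraries, and 1 peak list per ATAC library giving each summit a fold enrichment (a ratio) and a −log10 q. STAR 2.7.11b, Bowtie2 2.4.4, MACS3 3.0.0a7 and the build mm10 are listed, per the submitters' processing notes, with no roles. Not given in the sources used here were the counting tool, strand setting, annotation and peak-calling settings. Overlapping and near-identical genes could therefore share counts.

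Summits of one interval were joined. Intervals of the 4 lists were merged at an overlap of 1 bp. A region was assigned to the gene with the nearest start site, from its midpoint, within 100 kb. Of 24385 genes in the count table, 24244 matched RefSeq (GRCm38.p6) and 18078 had a listed start; for the rest both gene ends served (369 regions), and their distances are to a gene end. No exon annotation was used.

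Counts were tested with edgeR 4.0.16 in R 4.3.3 (TMM, default low-count filter with a minimum count of 10, robust quasi-likelihood F test, two-sided), with Benjamini-Hochberg adjustment over 13075 genes. Genes are called below 0.05. SE values are the absolute log2 change over the square root of F, so they are approximate. CPM are scaled to the effective library size, and p-values printed after a first edgeR value are of the same kind. The test was checked on simulated libraries drawn independently, so that check does not cover libraries that deviate together. DESeq2 1.42.0 was an alternative. Same-numbered RNA libraries deviated together (correlations of 0.292, 0.28 and 0.431, against −0.31 to 0.11 for other pairs). The labels state no pairing, so whether the numbers pair the samples is not known. The main fit has no block, and a fit with the replicate number as a block was an alternative.

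The rule for named genes took the 8 strongest, the 3 widest and the 6 strongest start-site regions, the 8 largest falls and 6 largest rises among called genes with a mean of at least 5 CPM, the 6 genes with most regions, and up to 3 genes per list. The members and lists were chosen with earlier results of these data known. A few genes that the rule names are not reported here. The 2-against-2 peak lists were not tested.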

Additional observations from a re-analysis of the deposited data

How the results depend on the processing

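The number of vehicle-only regions was 655 when a −log10 q of at least 5 was asked of both DMSO lists, with 122 nearby genes lower and 139 higher. It stayed within 1.5 times at the other peak thresholds and overlaps, from 1443 to 2007. Leaving out each ATAC library gave 2405 to 3991 regions, 366 to 502 genes lower and 458 to 689 higher. The rule then has 1 condition fewer, so a rise in these numbers is built in. Within 10 kb, 127 genes were lower and 129 higher, with a median change of 0.016. With a replicate block 274 genes near vehicle-only regions (27.5%) were lower and 344 (34.5%) higher, beside 29.2% and 26.3% of all tested genes in that fit, and at start sites 52 (32.9%) and 43 (27.2%). Of 76 single genes the block lost 0 calls and gained 9; these are Nav1, Ccl2, H2-Eb2, Tfec, Cdk6, Cd200r3 and Mir17hg, given with their values, and Itga5 (0.0121) and Plac8 (0.00357). Leaving out each RNA library gave 176 to 266 lower and 223 to 322 higher. Restricting to genes with a listed start, an alternative chosen after seeing the data, gave 210 lower and 237 higher. Counts printed here without a share depend on set size and cannot be read against all tested genes. Of all tested genes, 25.6% were lower and 23% higher in the main fit. The shares in the fits without an RNA library are not given. Of 760 values of single genes under alternatives, 41 lost and 23 gained a call and 0 reversed. ATAC read depth is unknown, and 2 libraries per group limit every statement on peak loss.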

Other observations

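Vehicle-only regions also lay beside microRNA genes, and overlapped the Mir713 (4.39 and 7.3) and Mir6541 (6.3 and 4.38) hairpins. The share of hairpins near other classes of region was not counted. The region chr14:115042004-115042477 (3.37 and 8.94) lay 1193 bp before the Mir17 hairpin, the first of a cluster of 6 hairpins (Mir17, Mir18, Mir19a, Mir20a, Mir19b-1 and Mir92-1) known for its role in proliferation. RNA of the host gene Mir17hg was 11.9, 11.6 and 9.51 CPM in DMSO and 8.27, 10.2 and 4.93 in AMLE, in overlapping groups. The change of −0.49 did not pass (edgeR adjusted p = 0.14), but did without AMLE replicate 2 (0.0479) and with a block on the replicate number (0.0162). The region on the start of 2610318N02Rik lay 462 bp from the Mir301b and 816 bp from the Mir130b hairpin. Mature microRNAs were not measured.

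Of 22 integrin and adhesion genes, 5 had a vehicle-only region, beside 7.62% of all tested genes. A region found in all 4 libraries was near 19 of the 22. Of the 5 genes, 3 rose and 1 fell. Itga6, an integrin alpha chain, rose by 0.42 (edgeR adjusted p = 0.0316), a call lost without replicate 1 or 3 of DMSO and without replicate 1 or 2 of AMLE (0.0722 to 0.0829). Itgb3, the integrin beta 3 chain, rose from 43.2, 36.7 and 25.6 to 120, 141 and 58.9 CPM (1.60 ± 0.34, edgeR adjusted p = 0.00768), with a region at 4.08 and 3.44. AMLE replicate 3 was the lowest of its group and above every DMSO library. Fn1, fibronectin, a gene of the monocyte marker list, had a region of 10.2 and 11.1 at an end of the gene. It was at 935, 876 and 775 CPM in DMSO and 262, 159 and 648 in AMLE, and its change of −1.28 did not pass (edgeR adjusted p = 0.0593; 6.81e-04 without AMLE replicate 3).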
